A study of Homo sapiens with 5 samples.

Results

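RNA recovered with FLAG-tagged CBFB was set directly against RNA recovered with hnRNPK. In RNA immunoprecipitation (RIP) an antibody collects a protein from lysed cells, and in RIPseq the RNA collected with it is sequenced. The genes were chosen by counts alone. Genes named MT-, those of the mitochondrial genome, were dropped, and a gene was kept where it had 100 or more expected counts in the FLAG-CBFB RIP and in each of the 2 hnRNPK RIP repeats. Of the 56632 genes in the tables, 7728 (13.6%) met this rule. The level of a gene is its FPKM (fragments per kilobase and library size) rescaled so that all genes but the MT- genes sum to 1000000 in a library. The RIP ratio is the log2 of the FLAG-CBFB RIP level over an hnRNPK RIP level, so a positive value means a higher level in the FLAG-CBFB RIP. Where levels are given as "with FLAG-CBFB" and "with hnRNPK", they are those of the FLAG-CBFB RIP and of hnRNPK RIP repeats 1 and 2, in this order.

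The 5 libraries came from MCF10A, an established human breast epithelial line that does not form tumours, grown without treatment in medium with horse serum, insulin, EGF, hydrocortisone and cholera toxin and used at a passage under 20. The FLAG RIP (1 library) and its input (1 library) came from a stable line expressing FLAG-CBFB, while the hnRNPK RIPs (repeats 1 and 2) and their input (1 library) came from parental cells. The study pulled down FLAG-CBFB for mass spectrometry from CBFB knockout MCF10A cells carrying a lentiviral transgene, and the labels do not say whether the line used for RIPseq also lacked its own CBFB. The hnRNPK antibody bound the cells' own protein, so the RIPs differ in antibody, tag, cell line and library at once, and these cannot be told apart. No mock immunoprecipitation was analysed here.

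CBFB is the subunit of the core binding factor that does not itself bind DNA. It pairs with RUNX proteins and steadies them on DNA. hnRNPK is an abundant RNA-binding protein whose KH domains take up single-stranded C-rich sequence, and it acts in splicing, mRNA stability and translation. The study used RIPseq to find further transcripts bound by CBFB and by hnRNPK. The comparison here asks which transcripts were relatively more abundant with which protein.

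The libraries held between 69786576 and 106855647 expected counts. Without the MT- genes, 34365672 counts were left in the FLAG-CBFB library and 15958095 and 12147530 in those of hnRNPK, since MT- genes took 62.18%, 84.51% and 86.58% of the counts. Nuclear copies of mitochondrial genes and rRNA genes took 1.02% of the summed rescaled FPKM with FLAG-CBFB and 6.26% and 6.89% with hnRNPK. Reads of such copies cannot be told apart from mitochondrial reads. Of 12 epithelial markers, 11 passed the count minimum, KRT14 being the exception, and KRT5, a basal keratin, was at 4420 with FLAG-CBFB and at 4660 and 5870 with hnRNPK. Of 11 markers of other cell types in the tables, 0 passed it. The leukocyte marker PTPRC, the haemoglobin gene HBB and the fibroblast collagen COL3A1 were listed at 0 in all 3 RIPs. The summed level of these markers was 74.3 with FLAG-CBFB and 36.0 and 39.2 with hnRNPK, most of it HBA1 (69.0, 27.9 and 28.8), against 10.8 and 18.5 in the inputs, and its part in the results was not tested. In bulk RNA, fewer cells of a type and less RNA per cell cannot be told apart.

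A gene was called where its level differed by more than 2-fold in the same direction against both hnRNPK repeats. This rule has no p-value, because the FLAG-CBFB RIP is 1 library and both ratios of a gene share it. By this rule 1471 of 7728 genes (19%) were higher in the FLAG-CBFB RIP and 1161 (15%) were higher in the hnRNPK RIPs, while 5096 (65.9%) were neither. At 4-fold the numbers were 78 and 194. The balance between the sides depends on the scaling and on the count minimum. Genes higher in the FLAG-CBFB RIP were 55.9% of those called here, 99.6% with FPKM as deposited, where the mitochondrial share is left in, 42.3% after centring on the median gene 33.1% with DESeq2 size factors and 28.7% at a count minimum of 500. The mean RIP ratio ran from -5.32 to 3.14 with a median of 0.19 and an SD over genes of 1.13. The lowest value is that of MTND4P12, a nuclear copy of a mitochondrial gene. The SD of the ratio between the hnRNPK repeats was 0.5, and 386 genes (4.99%) differed by more than 2-fold between them.

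**Figure D1:**
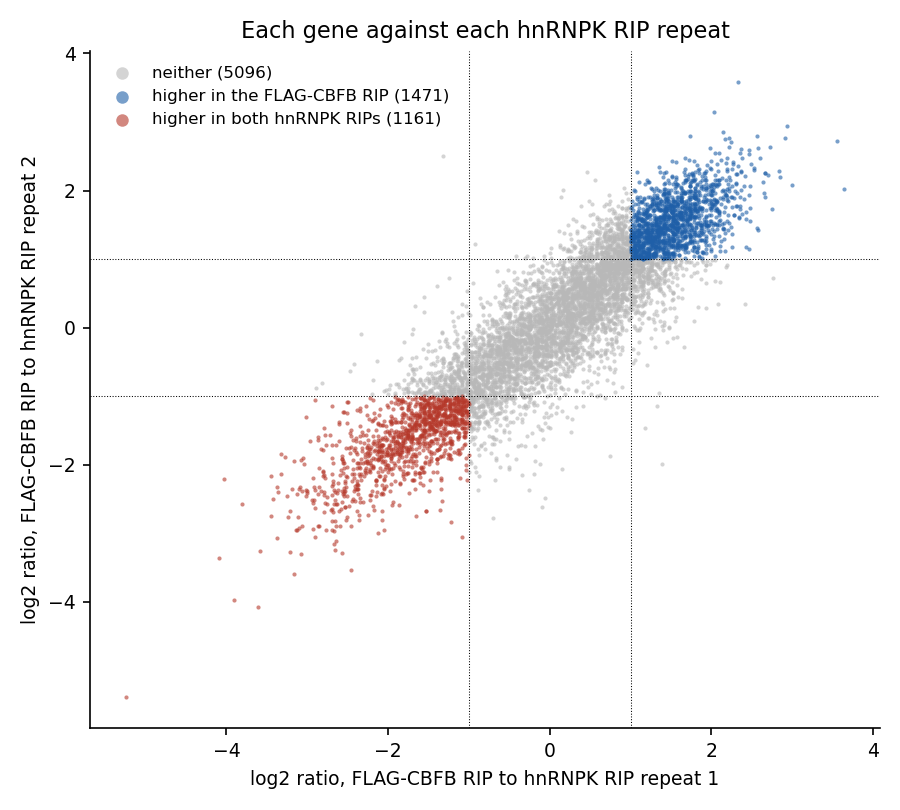
Log2 RIP ratio of each gene to hnRNPK RIP repeat 1 (horizontal) and to repeat 2 (vertical), 1 point per gene, with dotted lines at 2-fold. The 1471 genes higher in the FLAG-CBFB RIP lie at the upper right and the 1161 higher in the hnRNPK RIPs at the lower left. The lower left reaches farther from 0 (-5.32 against 3.14 on the mean ratio). Its lowest value is that of MTND4P12, a nuclear copy of a mitochondrial gene, whose reads cannot be told apart from mitochondrial reads.

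Several gene lists had most or many of their members on the same side. The list counts below stand beside 19% higher in the FLAG-CBFB RIP and 15% higher in the hnRNPK RIPs over all genes. On the FLAG-CBFB side were mRNAs of the ribosome, the respiratory chain, the proteasome and the chaperones. On the hnRNPK side were mRNAs of the H3K4 methyltransferase complexes and of the BET proteins and acetyltransferase coactivators, and long noncoding RNAs. Transcripts on the hnRNPK side were richer in C, which can be seen in the sequences themselves. For each gene, the GENCODE 29 transcript nearest in length to the value in the FLAG-CBFB RIP table was searched for the stretch of 30 bases with the most C. Printed here are 4 genes from the FLAG-CBFB side and 2 from the hnRNPK side whose inputs differed by less than 0.5 on the log2 scale, picked as examples after their values were known. Capitals mark runs of 3 or more C, T stands for U, and each line reads 5′ to 3′.
RPS7: ccgCCCtcctcctcgcgctgtttccgcctc
CYCS: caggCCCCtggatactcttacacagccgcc
ANXA1: gagCCCCtatcctaccttcaatccatcctc
PPIA: caCCCCtccaCCCCatttgctcgcagtatc
HNRNPUL1: CCCggCCCCCtataCCCCaccgccaCCCCC
TCF7L2: ctCCCCCCCCttCCCCtCCCCtcctCCCtc

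The first 4 are from transcripts higher in the FLAG-CBFB RIP and hold 17, 13, 14 and 15 C. The last 2 are from transcripts higher in the hnRNPK RIPs and hold 21 and 23 C. The stretch lies in the 5′ UTR of RPS7 and TCF7L2, in the coding sequence of CYCS, ANXA1 and HNRNPUL1, and in the 3′ UTR of PPIA. On GRCh38 the genes are RPS7 (chr2:3575205-3580920, plus strand), CYCS (chr7:25120091-25125361, minus), ANXA1 (chr9:73151757-73170393, plus) and PPIA (chr7:44796680-44824564, plus), and on the other side HNRNPUL1 (chr19:41262496-41307598, plus) and TCF7L2 (chr10:112950250-113167678, plus).

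Over all protein-coding genes with a transcript, the richest stretch held a median of 15 C in the 1445 genes higher in the FLAG-CBFB RIP, 18 C in the 4903 called in neither direction and 19 C in the 1043 higher in the hnRNPK RIPs. The motif CCCC was then counted on the transcript strand, overlapping matches included. Its median density was 2.37 per kb on the FLAG-CBFB side, 5.35 among the genes called in neither direction and 7.92 on the hnRNPK side. At least 1 CCCC was present in 1321 of 1445, 4828 of 4903 and 1039 of 1043 of these transcripts, and in 7188 of all 7391. GGGG, the same motif on the opposite strand, had medians of 2.83, 4.63 and 5.02 per kb, and TTTT 8.79, 6.55 and 7.2 per kb.

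When protein-coding genes were ordered by CCCC density and cut into 10 bins of like size, the median RIP ratio went down from each bin to the next. It was 1.18 in the bin with the fewest (0 to 1.22 per kb) and -0.66 in the bin with the most (13.7 to 50.2 per kb). In the lowest bin 51.2% of genes were higher with FLAG-CBFB and 1.76% with hnRNPK, and in the highest bin 2.57% and 26.7%. The order was seen against each hnRNPK repeat, with medians from 1.13 to -0.64 against repeat 1 and from 1.23 to -0.65 against repeat 2. The median ratio of the inputs was 0.3 in the lowest bin and -0.1 in the highest. With FPKM as deposited the median RIP ratios of both bins were above 0, at 2.89 and 1.05, and kept this order.

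**Figure D2:**
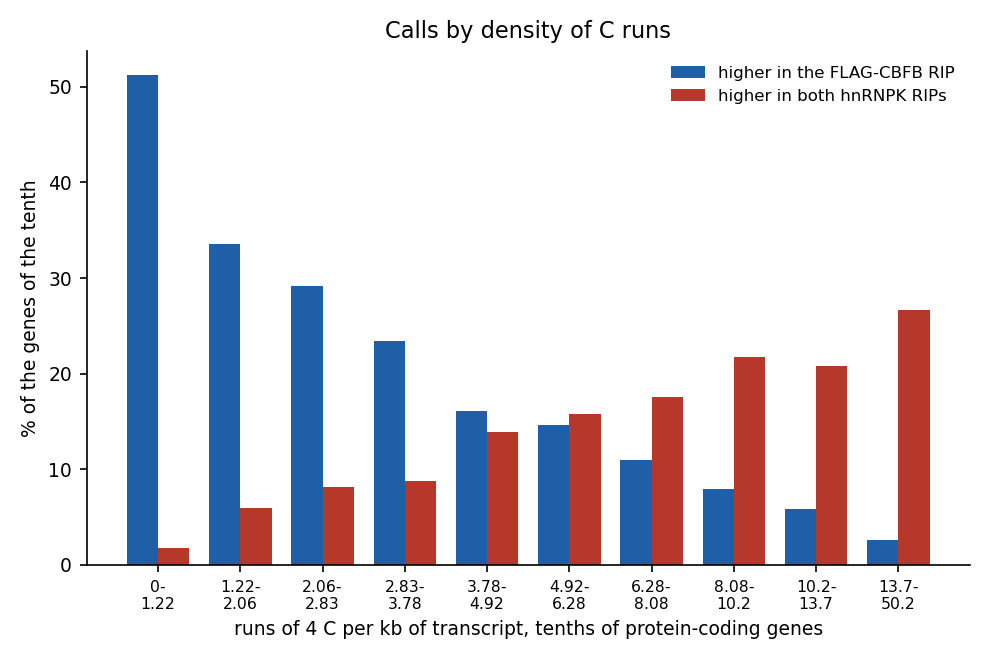
Share of protein-coding genes higher in the FLAG-CBFB RIP (blue) and higher in both hnRNPK RIPs (red), in 10 bins of 739 or 740 genes ordered by overlapping CCCC matches per kb of transcript. The blue bars go from 51.2% down to 2.57% and the red bars from 1.76% up to 26.7%.

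Across 7391 genes, Spearman's correlation between CCCC density and the mean RIP ratio was -0.46, and it was -0.42 and -0.48 against the repeats taken singly. Genes are not independent samples and all of them share the same libraries, so no p-value belongs to these values. CCCC density had a correlation of 0.41 with the ratio of the hnRNPK RIPs to their input and of 0.28 with the ratio of the FLAG-CBFB RIP to its input. CCCC density thus went with a higher level over input in both RIPs, and with the ratio of the inputs it had a correlation of -0.24. Other measures of C varied in this. The percentage of C in the transcript had a correlation of 0.33 with the hnRNPK RIPs over input and 0.3 with the FLAG-CBFB RIP over input. The number of C in the richest stretch had a correlation of 0.45 with the hnRNPK RIPs over input and 0.1 with the FLAG-CBFB RIP over input. For the longest run of C these were 0.38 and 0.01, and for GC content 0.2 and 0.24. The whole GC content had a weaker relation to the RIP ratio, with a correlation of -0.3, and TTTT had 0.1.

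Length went with the RIP ratio as well. The median transcript was 1630 nt on the FLAG-CBFB side, 2600 nt for genes called in neither direction and 3510 nt on the hnRNPK side. The median 3′ UTR was 479, 1040 and 1670 nt, and the median coding sequence 882, 1240 and 1450 nt, over the 6305 genes whose transcript had an annotated coding sequence. The Spearman correlation with the RIP ratio was -0.35 for the whole transcript and -0.33 for the 3′ UTR. Length also went with the ratio of the inputs, the other way, with a correlation of 0.46. Within each of 3 bins of transcript length the hnRNPK side still had the higher CCCC density, with medians of 8.56 against 2.83 per kb among the shortest transcripts, 9.52 against 2.12 in the middle bin and 6.84 against 1.79 among the longest. GGGG density was higher there as well, at 4.73 against 3.4, 6.04 against 2.45 and 4.7 against 2.31 per kb. Within each of 3 bins of C content the hnRNPK side in turn had the longer transcripts. The medians were 4210 against 2048 nt in the lowest bin, 4050 against 1256 in the middle and 3030 against 965 in the highest. The separate parts of composition and length were not tested. For some genes the transcript searched was far shorter than the effective lengths in the RIPs. It had 860 nt for KMT2D against 5738, 6760 and 6143 nt, and 1402 nt for MDC1 against 3678, 4321 and 4003 nt.

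Of the mRNAs of CBFB, hnRNPK and the RUNX proteins, 2 were called higher with FLAG-CBFB and 0 with hnRNPK. CBFB mRNA, whose transgene only the FLAG-CBFB cells carry, had a level of 119 with FLAG-CBFB and of 20.0 and 17.2 with hnRNPK. It was at 78.8 in the FLAG-CBFB cell input and at 43.4 in the parental input. Its mean RIP ratio of 2.68 ± 0.15 (SD, n = 2 repeats), or 6.41-fold, rests in part on the length that RSEM assigned, because the effective length was 989 nt with FLAG-CBFB and 1826 and 2153 nt with hnRNPK. Without a length term, on counts, edgeR gave a log2 fold change of 1.51. Transgene and endogenous reads were not separated. Only 22 of the 7728 genes had effective lengths more than 2-fold apart between the RIPs.

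HNRNPK mRNA was at 418 with FLAG-CBFB and at 168 and 138 with hnRNPK, and the inputs were at 659 and 711. All 3 RIPs were thus below their inputs, the hnRNPK RIPs by more. RUNX1, which encodes the DNA-binding partner of CBFB, had a ratio below 0. It was at 89.0 with FLAG-CBFB and at 192 and 148 with hnRNPK, against 20.6 and 14 in the inputs, so every RIP was above its input. Its ratio was over 2-fold against repeat 1 (-1.11) but not against repeat 2 (-0.73), and it was not called.

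RUNX2, a paralog of RUNX1, was at 7.63 with FLAG-CBFB and at 27.7 and 10.6 with hnRNPK, so its ratio was -1.86 against repeat 1 and -0.47 against repeat 2 and it was not called either. RUNX3 did not meet the count minimum. GAPDH, a glycolytic enzyme whose mRNA served the study as a negative control, was at 4830 with FLAG-CBFB and at 1390 and 1380 with hnRNPK, with inputs at 5720 and 6510. EIF4B, a helicase cofactor in translation initiation, was at 275 with FLAG-CBFB and at 174 and 131 with hnRNPK, but its inputs were at 710 and 269. Its RIP ratio of 0.86 became -0.53 once the ratio of the inputs was subtracted.

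Messenger RNAs of the translation machinery were often on the FLAG-CBFB side. Of any single gene list, that of the cytosolic ribosomal proteins had the most genes called higher in the FLAG-CBFB RIP. Of 78 cytosolic ribosomal protein mRNAs compared, 69 were higher with FLAG-CBFB and 0 with hnRNPK, with a median RIP ratio of 1.66 against 0.19 over all genes. Their median ratio was 1.73 against repeat 1 and 1.51 against repeat 2, and it stood at 0 between the inputs. Over their inputs the median was below 0 with both proteins, at -0.55 with FLAG-CBFB and -2.21 with hnRNPK. RPL35A, a protein of the large subunit, was at 1640 with FLAG-CBFB and at 275 and 267 with hnRNPK, a 6.06-fold difference, with inputs at 2290 and 2040. RPS7, of the small subunit, was at 1750 and at 303 and 346, with inputs at 2570 and 2490. RPS12, RPS13 and RPS10 of the small subunit had mean ratios of 2.42, 2.28 and 2.07. At the low end of the list, RPL36A had a ratio of 0.32. Ribosomal protein genes have many processed pseudogenes, and reads shared with those copies make single values uncertain.

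RPS3A, of the small subunit, was at 2530 with FLAG-CBFB and at 525 and 486 with hnRNPK, with inputs at 4170 and 2940. Of 38 translation initiation factors 16 (42.1%, against 19% of all genes) were higher with FLAG-CBFB and 3 (7.89%, against 15%) with hnRNPK. Their median was 0.98. EIF3E, a subunit of the factor that joins mRNA to the small ribosomal subunit, was highest at 2.15, and EIF4EBP2, a repressor of cap-dependent initiation, lowest at -2.19. TPT1, an abundant growth-related mRNA regulated together with ribosomal protein mRNAs, was at 4290 with FLAG-CBFB and at 856 and 835 with hnRNPK.

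Mitochondrial proteins encoded in the nucleus formed another block. Of the respiratory chain, 28 of 37 mRNAs of complex I and 21 of 23 of complexes II to IV were higher in the FLAG-CBFB RIP, with medians of 1.5 and 1.67, and 0 were higher in the hnRNPK RIPs. Of 15 ATP synthase mRNAs 11 were higher, with a median of 1.49. Of 62 mitochondrial ribosomal protein mRNAs 37 (59.7%, against 19% of all genes) were higher, with a median of 1.27. The medians between the inputs lay below 0 for these 4 lists, at -0.47, -0.35, -0.24 and -0.42, so the inputs lay the opposite way. Over their inputs the same lists had medians of -0.22, -0.3, -0.2 and -0.26 with FLAG-CBFB. With hnRNPK they were -2.09, -2.28, -2.24 and -2.03. The medians were thus below input with both proteins, and less so with FLAG-CBFB. NDUFA4, a subunit of the respiratory chain, was at 106 with FLAG-CBFB and at 19.1 and 17.6 with hnRNPK. UQCR11, a small subunit of complex III, had the highest ratio of these lists at 2.94, and 2.01 on counts, its effective length being 479 nt with FLAG-CBFB and 849 and 779 nt with hnRNPK. CYCS, the electron carrier cytochrome c, was at 230 with FLAG-CBFB and at 43.4 and 62.6 with hnRNPK. The transcripts of the mitochondrial genome itself, which are not part of the comparison, took a larger share of the hnRNPK RIPs than of the FLAG-CBFB RIP.

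Genes of protein folding and turnover lay on the same side. Of 21 cytosolic chaperone mRNAs 19 were higher in the FLAG-CBFB RIP with a median of 1.59, and of 28 mRNAs of chaperones and the translocon of the endoplasmic reticulum 20 were, with a median of 1.28. Over input, the cytosolic list had medians of -0.41 with FLAG-CBFB and -1.92 with hnRNPK, and the other list -0.49 and -1.85. HSPA8, the constitutive Hsp70, was at 1920 with FLAG-CBFB and at 411 and 478 with hnRNPK, and its inputs were also apart, at 3900 and 1640. After subtraction of the inputs its mean ratio went from 2.11 to 0.86. PPIA, the prolyl isomerase cyclophilin A, was at 3620 with FLAG-CBFB and at 753 and 867 with hnRNPK, with inputs at 4720 and 5060. SEC61G, a translocon subunit, had a ratio of 2.05 and HYOU1, a large chaperone of the same compartment, one of -2.62. Of 30 proteasome mRNAs 16 (53.3%, against 19% of all genes) were higher and 1, PSMD11, was lower. The median of this list was 1.19, and PSMA1 was highest at 2.06. Over input its medians were -0.17 with FLAG-CBFB and -1.88 with hnRNPK.

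Further mRNAs with the highest ratios included secreted and cell surface proteins and enzymes. MIF, a cytokine, was at 486 with FLAG-CBFB and at 97.2 and 124 with hnRNPK, although its input was lower in FLAG-CBFB cells (586 against 1280). B2M, the light chain of MHC class I, was at 1120 and at 271 and 252, and here the input was higher in FLAG-CBFB cells (1730 against 883). ANXA1, a membrane-binding annexin, was at 553 and at 131 and 129 with inputs nearly alike at 604 and 686. The cyclin CCNG1 (2.23), the leukotriene hydrolase LTA4H (2.09) and the myosin light chain MYL12B (2.07) completed the set, and of these 3 only MYL12B had inputs alike.

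Other lists with a median above that of all genes were less uniform, and their shares of called genes stand beside 19% higher in the FLAG-CBFB RIP and 15% higher in the hnRNPK RIPs over all genes. Of 17 glycolytic enzymes 8 were higher with FLAG-CBFB and 0 with hnRNPK, with a median of 1.06, GAPDH at 1.8 and PKM at -0.71. The SR splicing factors had 7 of 14 higher and 2 lower (median 1.04, TRA2B 1.68, SRRM1 -2.01), the hnRNP proteins 7 of 27 and 2 (0.92, HNRNPH2 2.15, HNRNPUL1 -2.98), and the SF3A and SF3B splicing factors 3 of 10 and 1 (0.76, SF3B5 1.89, SF3A1 -1.74). The S100 calcium-binding proteins had 3 of 8 higher and 0 lower (0.56, S100A6 2.04, S100A3 -0.61), and the tubulins, actins and their partners 4 of 20 (20%, near the share of all genes) and 1 (0.73, TMSB10 1.78, MYH9 -1.28). Of 9 keratins 0 were higher and 1, KRT80, was lower, with a median of 0.81, and KRT17 had the highest ratio at 1.16. KRT80 had inputs at 0.526 and 3.19, and its ratio of -2.68 became -0.08 once the ratio of the inputs was subtracted. The ratio of KRT17 became 0.19 in the same way. The medians of these lists, and of the translation, mitochondrial, folding and proteasome lists, were above 0 under every alternative setting recomputed for them.

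**Figure D3:**
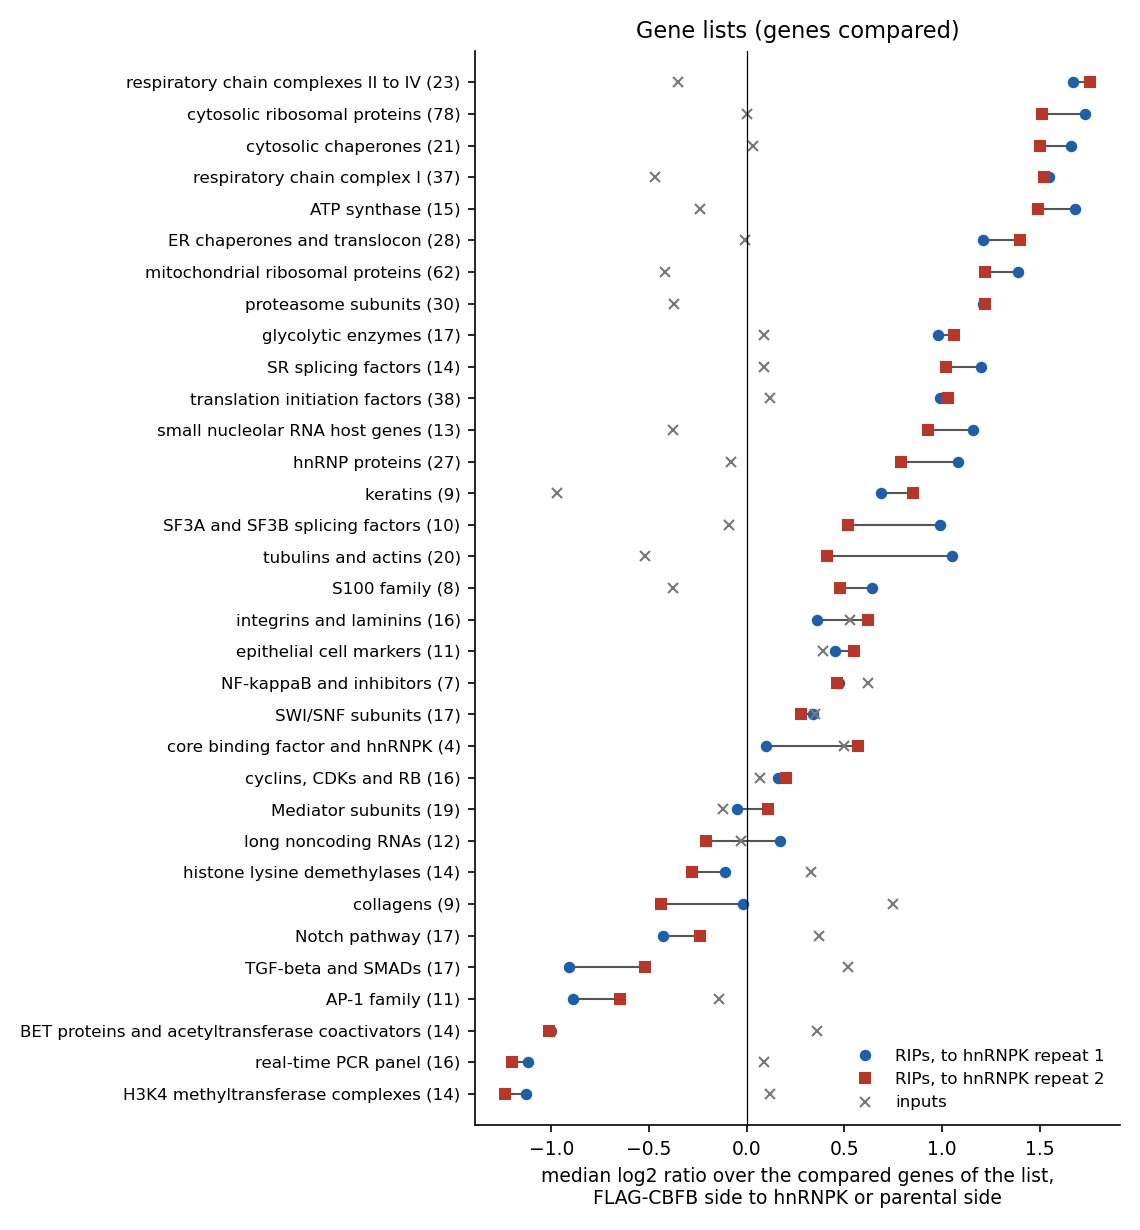
Median log2 RIP ratio of each gene list to hnRNPK RIP repeat 1 (circles) and repeat 2 (squares), and median log2 ratio of the inputs (crosses), with the number of genes compared in brackets. The ribosomal, respiratory and chaperone lists stand near 1.5 and the H3K4 methyltransferase list near -1.2, where the latter turns to 0.52 with FPKM as deposited.

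Among the lists of chromatin regulators, 2 had many members on the hnRNPK side. Of 14 genes of the H3K4 methyltransferase complexes, which mark active promoters and enhancers, 8 (57.1%, against 15% of all genes) were higher in the hnRNPK RIPs. In the FLAG-CBFB RIP 0 were higher, against 19% of all genes. The median of -1.19 turned to 0.52 with FPKM as deposited, where the median of all genes was 1.9. Of 14 BET proteins and acetyltransferase coactivators 6 (42.9%) were higher in the hnRNPK RIPs and 0 in the FLAG-CBFB RIP. Their median of -1.08 turned to 0.63 with FPKM as deposited. KMT2D, a methyltransferase of enhancers, was at 126 with FLAG-CBFB and at 343 and 321 with hnRNPK, with inputs at 20.6 and 16.8. KMT2A, its relative at promoters, had the lowest ratio of its list at -2.2, and the FLAG-CBFB RIP (5.46) was below its input (11.3) where the hnRNPK RIPs (22.6 and 27.8) were above theirs (9.03). KDM6A, a demethylase found in these complexes, had a ratio of 0.5.

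KAT2A, an acetyltransferase, was the highest of the coactivator list at 0.37. Of 14 histone lysine demethylases 5 were higher in the hnRNPK RIPs and 1, KDM1A, in the FLAG-CBFB RIP, with a median of -0.15 that was 1.56 with FPKM as deposited, -0.63 against each RIP's own input and -1.73 at a count minimum of 500. KDM1B, an H3K4 demethylase, was at 8.16 with FLAG-CBFB and at 74.5 and 42.0 with hnRNPK. Of 17 subunits of the SWI/SNF remodelling complex 4 (23.5%) were lower and 2 (11.8%) higher, from ARID1A at -2.37 to SMARCA2 at 1.88. Over all genes 15% were lower and 19% higher. Once the ratio of the inputs was subtracted, SMARCA2 was at 0.52 and ARID1A at -2.55. The median of the list, 0.35, became -0.07 with DESeq2 size factors and -0.32 at a count minimum of 500. Of 19 Mediator subunits 4 (21.1%) were lower and 2 (10.5%) higher, from MED29 (-1.78) to CCNC (1.85). Their median of 0.03 was -0.15 after centring on the median gene and -1.15 at a count minimum of 500.

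Some lists of signalling genes and the collagens had medians below that of all genes, with shares higher in the hnRNPK RIPs that, AP-1 apart, were near that of all genes. Of 11 genes of the AP-1 family of transcription factors 3 (27.3%, against 15% of all genes) were higher in the hnRNPK RIPs and 0 in the FLAG-CBFB RIP (median -0.87), of 17 genes of TGF-beta signalling 3 (17.6%) and 2 (-0.73), of 17 Notch genes 3 (17.6%) and 0 (-0.54) and of 9 collagens 1 (11.1%) and 1 (-0.39), and all 4 medians were above 0 with FPKM as deposited. The collagen median was also 0.14 at a count minimum of 500 and -0.02 against repeat 1 alone. In AP-1, FOSB was at 34.1 with FLAG-CBFB and at 330 and 127 with hnRNPK, while JUNB had a ratio of 0.94. ACVR1B, an activin receptor, had -2, and BMPR1A, a BMP receptor, 1.18. MAML1, a coactivator of Notch, had -1.63, and the ligand JAG1 1.36. COL6A1 had -1.77 and COL17A1, a hemidesmosome collagen, 1.46. Once the ratio of the inputs was subtracted, JUNB was at 0.02, BMPR1A at 0.24, JAG1 at 0.4 and COL17A1 at 0.83. On the other side FOSB was then at -2.37, ACVR1B at -2.78, MAML1 at -1.92 and COL6A1 at -2.52.

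Of 7 genes of NF-kappaB and its inhibitors 1 (14.3%), the inhibitor NFKBIA at 1.79, was higher in the FLAG-CBFB RIP. Their median of 0.47 became 0.05 against each RIP's own input and -0.52 at a count minimum of 500. NFKBIA was at 0.82 once the ratio of the inputs was subtracted. Of 16 integrins and laminins 3 (18.8%) were higher with FLAG-CBFB and 0 with hnRNPK (median 0.55, from ITGA3 at -1.03 to ITGB1 at 1.86). For 16 cyclins, CDKs and RB genes the numbers were 2 (12.5%) and 0 (0.18, from E2F4 at -1.12 to CDK7 at 2.12). For 11 epithelial markers they were 1 (9.09%) and 1 (9.09%), with a median of 0.5. None of these shares was above the 19% and 15% of all genes. These 3 medians became -0.02, -0.16 and -0.13 against each RIP's own input. Once the ratio of the inputs was subtracted, ITGB1 was at 0.67, ITGA3 at -0.95, CDK7 at 2.08 and E2F4 at -0.82. EGFR, the receptor for the growth factor in the medium, was the lower epithelial marker. It was at 35.9 with FLAG-CBFB and at 152 and 126 with hnRNPK, although its input was higher in FLAG-CBFB cells (83.0 against 44.2). S100A2, the higher one, was at 10500 with FLAG-CBFB and at 2340 and 3860 with hnRNPK.

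The named transcripts with the lowest ratios had levels between 4.51 (DNMBP) and 283 (HNRNPUL1) in the FLAG-CBFB RIP. HNRNPUL1, a nuclear RNA-binding protein, was at 283 with FLAG-CBFB and at 2120 and 2340 with hnRNPK, a 7.87-fold difference, with inputs at 164 and 140. PROSER1, a proline- and serine-rich nuclear protein, was at 45.1 and at 416 and 433, with inputs at 16.5 and 18.7. MDC1, an adaptor at DNA double-strand breaks, was at 68.1 and at 430 and 643, with inputs at 17.6 and 24.2. In these 3 every RIP was above its input. A level over 2-fold apart from both hnRNPK repeats was a condition for naming them.

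The transcription factors HOXC8 and TCF7L2, the latter a nuclear effector of Wnt signalling, showed the same order of libraries. HOXC8 was at 21.2 with FLAG-CBFB and at 147 and 137 with hnRNPK, with inputs at 5.73 and 7.1. TCF7L2 was at 60.6 and at 459 and 344, with inputs at 14 and 11.4. ANKRD52, a regulatory subunit of a protein phosphatase, had a mean ratio of -2.87 and the phosphatase PTPN18 one of -3.19. GABBR1, a GABA receptor subunit, had -2.88, TULP3, a ciliary trafficking protein, -2.77 and DNMBP, an exchange factor for Cdc42, -2.77. FOXRED2 (-3) and MCOLN3 (-2.86) had repeats that differed by an SD of 0.76 and 0.55.

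For other transcripts the FLAG-CBFB RIP was below its input while the hnRNPK RIPs were above theirs. HELZ, an RNA helicase, was at 12.2 with FLAG-CBFB against 16.3 in its input, and at 103 and 91.4 with hnRNPK against 7.99. VEZF1, a zinc finger transcription factor, was at 21.7 against 32.2, and at 188 and 147 against 19.1. STC2, a secreted glycoprotein, was at 30.3 against 37.4, and at 265 and 236 against 88.6. ALDH1L2, a mitochondrial folate enzyme, was at 27.8 against 41.7, but its hnRNPK repeats were 455 and 128, an SD of 1.29 on the ratio. SOGA1 (-2.82) belonged to the same class. NPIPB5 (-2.78) is 1 of a family of near-identical copies, its inputs differed by -2.15, and its value is uncertain.

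**Figure D4:**
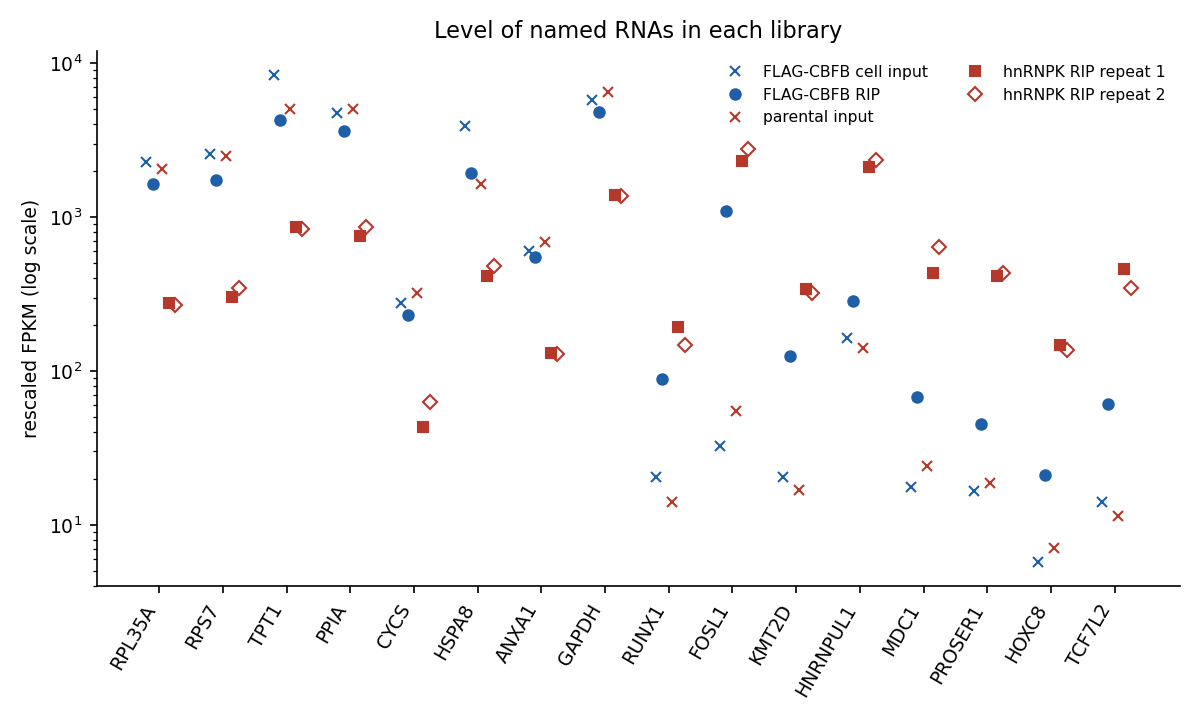
Rescaled FPKM (log scale) of 16 named RNAs in the FLAG-CBFB cell input and RIP (blue cross and circle) and in the parental input and both hnRNPK RIPs (red cross, square and diamond). From RPL35A to GAPDH all 3 RIPs lie below their inputs, the hnRNPK RIPs by more, and from RUNX1 to TCF7L2 all 3 RIPs lie above their inputs with the hnRNPK RIPs highest.

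Long noncoding RNAs were more often on the hnRNPK side than all genes, of which 15% were higher in the hnRNPK RIPs and 19% in the FLAG-CBFB RIP. Of 146 compared, 61 (41.8%) were higher in the hnRNPK RIPs and 5 (3.42%) in the FLAG-CBFB RIP, and their median ratio of -1.09 turned to 0.62 with FPKM as deposited. LINC00707 was at 73.0 with FLAG-CBFB and at 526 and 545 with hnRNPK, with inputs at 4.11 and 11.2. MALAT1, an abundant nuclear RNA, was at 37.1 with FLAG-CBFB and at 86.6 and 265 with hnRNPK, a wide spread. The small nucleolar RNA host genes, many of whose spliced RNAs start with a pyrimidine tract as ribosomal protein mRNAs do, lay on the other side, with 5 of 13 higher in the FLAG-CBFB RIP, 0 in the hnRNPK RIPs and a median of 0.92. SNHG5 was at 658 with FLAG-CBFB and at 123 and 142 with hnRNPK, and SNHG14 was lowest at -0.8. A list of 12 well-known long noncoding RNAs had 1 lower, MALAT1, and 0 higher, with a median of 0 that was 1.71 with FPKM as deposited and -0.49 with size factors, and PCAT6 was its highest at 0.73. Of 89 pseudogenes 33 (37.1%) were higher in the hnRNPK RIPs and 11 (12.4%) in the FLAG-CBFB RIP. Their median of -0.67 turned to 1.04 with FPKM as deposited. The pseudogenes include nuclear copies of mitochondrial genes, among them the lowest ratio of all, -5.32 for MTND4P12.

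A real-time PCR panel was chosen by the study among transcripts it called bound in these very samples, and it is not independent evidence of any direction. All 16 of its members had a mean ratio below 0, with RELA nearest to it at -0.68, 10 were called higher in the hnRNPK RIPs and 0 in the FLAG-CBFB RIP, and the median of -1.19 turned to 0.52 with FPKM as deposited. FOSL1, an AP-1 protein, was at 1090 with FLAG-CBFB and at 2310 and 2760 with hnRNPK, with inputs at 32.3 and 55.3. KDM6B, an H3K27 demethylase, was at 52.6 and at 197 and 154, and DROSHA, the nuclease that cuts microRNA precursors, at 450 and at 1130 and 1330. All 3 were above their inputs in every RIP.

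KMT2B (-1.21), SETD1B (-1.17), the Wnt effector TCF7 (-1.28), the Notch inhibitor NUMBL (-1.42) and the Hedgehog repressor SUFU (-1.13) were also called, besides KMT2D. The luminal transcription factor GATA3 (-0.94), the cytokine TGFB1 (-0.82), the kinase GSK3A (-0.85), the methyltransferase SETD1A (-0.99), the NF-kappaB subunit RELA and the glycolytic enzyme PKM (-0.71) were under 2-fold against at least 1 repeat. DROSHA, with 1.59 CCCC per kb, was the member with the fewest C runs, and KDM6B, with 26.2, the member with the most. The transcript searched for DROSHA had 1261 nt, while its effective lengths in the RIPs were 1976, 2489 and 2537 nt. Its density may thus be that of a part of its RNA. Exceptions to the C pattern were found on the FLAG-CBFB side too, such as TMSB10 with 20.2 CCCC per kb and MIF with 15.3.

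The RIP ratio alone does not say on which side of its input a transcript lay. Of the 1471 genes higher in the FLAG-CBFB RIP, 1403 (95.4%) were below their inputs in all 3 RIPs, and 65 (4.42%) were above the input in the FLAG-CBFB RIP. Over their inputs, their median was -0.46 with FLAG-CBFB and -1.89 with hnRNPK. Of the 1160 genes higher in the hnRNPK RIPs that had a level in both inputs, 1132 (97.6%) were above the input in both hnRNPK RIPs, with a median of 2.14. In the FLAG-CBFB RIP, 667 of them (57.5%) were above the input too, with a median of 0.24 over all 1160, and 465 (40.1%) were below it. The position against the input depends on the scaling, and the RIPs share no input.

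Level in the input moved with the RIP ratio. The genes higher in the FLAG-CBFB RIP had a median level of 93.9 in the FLAG-CBFB cell input and 87.7 in the parental input, and those higher in the hnRNPK RIPs 14.4 and 12.3. Spearman's correlation between the RIP ratio and the log2 input level was 0.57 for the FLAG-CBFB cell input and 0.52 for the parental input, across genes. The part that input level played in the calls was not tested. The count minimum acts on this as well. A total of 2580 genes met it in the FLAG-CBFB RIP only, 37 in both hnRNPK RIPs only and 1136 in the FLAG-CBFB RIP and 1 hnRNPK RIP. Just inside the minimum were EIPR1, MON2 and HEATR6 with 100 counts in hnRNPK RIP repeat 2, and just outside THOC6 and VGLL4 with 99.95 and SEC31B with 99.82.

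The ratio of the inputs was set beside the RIP ratio to show where the cell populations differed. Between the inputs, 542 of 7721 genes (7.02%) were more than 2-fold higher in FLAG-CBFB cells and 237 (3.07%) more than 2-fold lower, with 7 genes listed at 0 in an input. Of the 2631 called genes with an input ratio, 183 (6.96%, 95% Wilson interval 6.04 to 7.99%) had inputs that differed by more than 2-fold in the same direction. The interval treats genes as independent, although all of them share the same libraries, so it holds no error between libraries. Spearman's correlation between the RIP ratio and the ratio of the inputs was 0.02. Among the genes higher in the FLAG-CBFB RIP 118 (8.02%) had an input over 2-fold higher in FLAG-CBFB cells and 22 (1.5%) lower. Among those higher in the hnRNPK RIPs the inputs were lower for 65 (5.6%) and higher for 58 (5%).

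When the ratio of the inputs was subtracted from each RIP ratio, 988 of the 1471 and 948 of the 1160 genes were still over 2-fold in the same direction against both repeats. Of 33 list medians, 22 moved by more than the spread between the repeats. The mitochondrial ribosomal protein list went from 1.27 to 1.88 and the AP-1 list from -0.87 to -0.43, whereas the ribosomal protein list went from 1.66 to 1.62 and the H3K4 methyltransferase list from -1.19 to -1.26. Among single genes, MIF went from 2.15 to 3.27, RPL35A from 2.6 to 2.43, LINC00707 from -2.87 to -1.43 and HELZ from -2.99 to -4.01. Each cell population had 1 input library, so these ratios carry no replicate error.

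**Figure D5:**
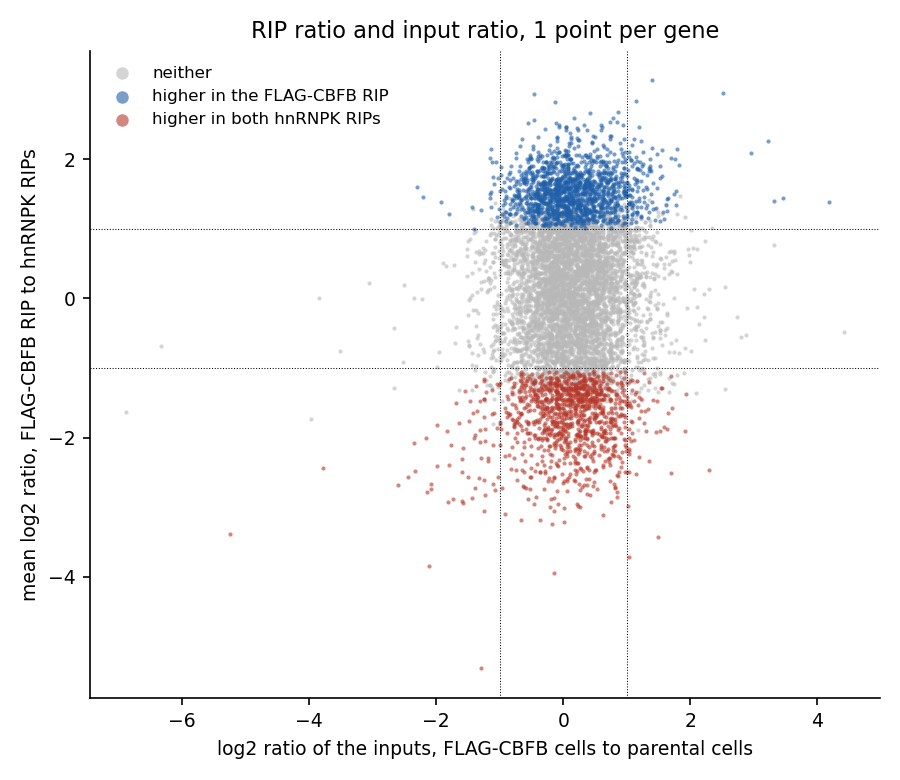
Log2 ratio of the inputs (horizontal) and mean log2 RIP ratio (vertical) of each gene with a level in both inputs, with dotted lines at 2-fold. Called genes (blue and red) spread over the same range of input ratios as the others, and Spearman's correlation across genes is 0.02.

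The counts were also tested. edgeR's quasi-likelihood test with Benjamini-Hochberg adjustment compared 1 FLAG-CBFB RIP with 2 hnRNPK RIPs, taking its spread from the hnRNPK repeats and assuming that the lone library varies like them. Nothing in the labels says that the repeats came from separate cultures, so their spread may be technical. At an adjusted p under 0.05 and more than 2-fold, 1494 genes (19.3%) were higher in the FLAG-CBFB RIP and 1739 (22.5%) higher in the hnRNPK RIPs. Of the 1471 genes of the fold rule 1289 were among the former, and of the 1161 genes 1146 were among the latter.

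By this test 69 of 78 ribosomal protein mRNAs were higher in the FLAG-CBFB RIP, 20 of 23 of respiratory complexes II to IV and 18 of 21 of the cytosolic chaperones. On the hnRNPK side 9 of 14 H3K4 methyltransferase genes, 7 of 14 coactivators, 6 of 11 AP-1 genes and 7 of 17 Notch genes passed, and 2 Notch genes passed in the other direction. The edgeR adjusted p was 0.00021 for RPL35A (log2 fold change 2.38), 0.00017 for HNRNPUL1 (-3.15) and 0.00014 for PROSER1 (-3.55). For RUNX1 it was 0.01 at a log2 fold change of -1.11, on which scale the gene passes 2-fold. Over the 7728 genes the margin of the 95% interval of the mean RIP ratio, for counting error only, was 0.13 at the median and 0.342 at most. This margin leaves out the assignment of reads to genes and the spread between libraries.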

How the data were processed

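RIPseq libraries of 1 FLAG-CBFB RIP, 2 hnRNPK RIPs and 1 input per cell population were compared. An mRNA kit made the libraries from RNA extracted with Trizol. The submitters' processing notes name Trimmomatic, STAR, RSEM and the build hg19, and versions are not given in the sources used here. The deposited tables hold, for each of 56632 Ensembl genes, an expected count (reads that RSEM assigned, not whole numbers), an FPKM value normalized by the authors to length and library, and an effective length, another value of the deposited tables. Samples were grouped by their labels.

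Genes named MT- were dropped, FPKM was rescaled to 1000000 per library, and genes with an expected count of 100 or more in each RIP were kept. No pseudocount was added. A gene was called at over 2-fold against both hnRNPK repeats. Since the FLAG-CBFB RIP is 1 library, this rule has no p-value. Expected counts were rounded for edgeR 4.0.16 (quasi-likelihood test) and DESeq2 1.42.0 in R 4.3.3, with Benjamini-Hochberg adjustment over all genes compared, and a model over all 5 libraries tested the interaction with the inputs. The code was tested on simulated data. Intervals are Wilson at 95%, and depth sets counting error only.

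Of the identifiers, 50276 were named from GENCODE 29, 1221 through transcripts of a single GENCODE 29 gene, and 5135 had no name. Since GENCODE 29 is on GRCh38, it gave names, biotypes, coordinates and transcript sequences, and no coordinate was taken from the tables. Named genes were CBFB, HNRNPK, RUNX1, GAPDH, EIF4B and the real-time PCR panel, the 15 highest and 15 lowest called protein-coding or long noncoding genes with 500 or more counts in each RIP and an effective length of 300 nt or more, the 10 highest and 10 lowest of these whose inputs differed by less than 0.5, and the extremes of each list. Some items that this rule covers are not reported here. The other genes named were chosen after their values were seen. The genes compared and the gene lists were chosen with earlier results of these data known.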

Additional observations from a re-analysis of the deposited data

Results flagged for a closer look

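Transcripts of the mitochondrial genome, which the comparison leaves out, took 62.18% of the counts with FLAG-CBFB and 84.51% and 86.58% with hnRNPK, above the 4.267% and 11.18% of the inputs.

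For 21 named genes the FLAG-CBFB RIP stood on the opposite side of its input from both hnRNPK RIPs. This is a difference in sign between 1 library and 2, each set against a single input, and the difference itself was not tested for single genes. Most of them were below the input in the FLAG-CBFB RIP and above it in the hnRNPK RIPs. Over all genes with an input ratio, that order held for 465 of the 1160 called higher in the hnRNPK RIPs (40.1%). It held for 515 of the 5090 called in neither direction (10.1%) and for 0 of the 1471 called higher in the FLAG-CBFB RIP. The reverse order held for 59 of these 1471 (4.01%) and for 127 of the 5090 (2.5%). Most named genes were picked as extremes of the RIP ratio, so their number is not a share of all genes. On the log2 scale, the FLAG-CBFB RIP over its input was -0.41 for HELZ, where the hnRNPK RIPs were at 3.68 and 3.52. It was -0.57 for VEZF1, -0.58 for ALDH1L2, -0.54 for DNMBP and -0.26 for SOGA1, and the hnRNPK RIPs lay between 2.17 (DNMBP) and 4.07 (ALDH1L2). It was -0.3 for STC2 (1.58 and 1.42 in the hnRNPK RIPs) and -0.13 for TULP3 (2.67 and 2.4).

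Among chromatin, splicing and signalling genes it was -1.05 for KMT2A (1.32 and 1.62), -0.82 for KDM1B (3.22 and 2.39), -0.29 for SRRM1 (2.13 and 2.8), -0.8 for MAML1 (1.07 and 1.18), -0.45 for ACVR1B (2.59 and 2.08) and -1.21 for EGFR (1.78 and 1.51). It was -0.28 for COL6A1 (1.81 and 2.68), -0.23 for MALAT1 (2.1 and 3.71), -1.25 for MYH9 (0.27 and 0.75) and -0.05 for PSMD11 (0.29 and 0.76).

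The remaining 4 were above the input in the FLAG-CBFB RIP and below it in the hnRNPK RIPs. CBFB mRNA was at 0.59 with FLAG-CBFB and at -1.12 and -1.33 with hnRNPK, with the transgene present in the FLAG-CBFB cells only. S100A2 was at 0.22 (-2.53 and -1.8), SEC61G at 0.05 (-1.98 and -2.05) and S100A3 at 0.06 (-0.8 and -0.84), so that the last 2 lay within 0.1 of their input in the FLAG-CBFB RIP.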

How the results depend on the processing

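No paired analysis was possible because only replicate number 1 occurs in both RIP groups. The 1471 genes higher in the FLAG-CBFB RIP became 5346 with FPKM as deposited, 845 with DESeq2 size factors, 2421 and 327 at count minimums of 20 and 500 (1531 and 811 higher in the hnRNPK RIPs), and 78 at 4-fold. The 1161 genes higher in the hnRNPK RIPs became 24 with FPKM as deposited, 194 at 4-fold and 1749 with DESeq2's test, by which 1379 were higher in the FLAG-CBFB RIP. Using 1 hnRNPK repeat at a time gave 1879 to 1932 and 1438 to 1543. With TMM factors the numbers were 1214 and 1406, of which 1128 and 1129 were among the genes called on rescaled FPKM. Without pseudogenes of mitochondrial genes and rRNA genes they were 1288 and 1296. edgeR's interaction with the inputs, with Benjamini-Hochberg adjustment, gave 1115 and 1222.

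The share of called genes whose inputs differed in the same direction (6.96%) became 5.03% with FPKM as deposited, 5.85% with median centring, 10.2% and 3.16% at count minimums of 20 and 500, 5.41% with a pseudocount of 1 and 3.69% at 4-fold. With 1 repeat at a time it was 5.96% to 8.44%.

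FPKM as deposited moved the median of all genes from 0.19 to 1.9. Under it the medians of the H3K4 methyltransferase list (0.52), the BET and acetyltransferase list (0.63) and the real-time PCR panel (0.52) turned positive, as did FOSL1 (0.5), TCF7 (0.43), KMT2D (0.31), KMT2B (0.5), DROSHA (0.26), SETD1B (0.54), SUFU (0.58), NUMBL (0.29), PSMD11 (0.34), MAML1 (0.08) and MYH9 (0.43). No other setting turned the direction of a called gene named here. Mitochondrial reads, left in those values, took a larger share of the hnRNPK RIPs. A difference in the total RNA recovered cannot be read from any of these scalings.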

Other observations

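The transcripts given here were called in neither direction and were chosen after their values were seen. S100A11, a calcium-binding protein, was at 19100 with FLAG-CBFB and at 21100 and 22100 with hnRNPK. PCBP2, another KH domain protein that binds C-rich RNA, was at 18400 with FLAG-CBFB and at 37500 and 26900 with hnRNPK. NEAT1, a long noncoding RNA of nuclear paraspeckles, was at 60.1 with FLAG-CBFB and at 26.5 and 166 with hnRNPK, so that it was over 2-fold apart in opposite directions against the repeats, as were 3 other genes.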
